A study of Bos taurus with 12 samples.

Results

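The interleukin-1 (IL-1) system was described here through 9 genes chosen by name and by role: the ligands IL1A, IL1B and IL18, the antagonist IL1RN, the receptor chains IL1R1 and IL1RAP, the decoy receptor IL1R2, and the inflammasome genes NLRP3 and CASP1. Of these 9 genes, 8 had at least 1 probe on the array, with 17 probes in all, among 12639 named genes and 43653 probes. CASP1, the protease that matures IL-1β and IL-18, had no probe that could be named through its accession and was not analysed here. Gene expression was measured in mammary gland (MG) biopsies of 12 multiparous Holstein cows, with 1 one-color Agilent array per cow. All cows were in early lactation, about 24 days in milk, and 1 healthy rear gland of each was infused with 50 µg of lipopolysaccharide (LPS), a component of the bacterial outer membrane. Control cows (CONT, n = 6) had free access to a lactation ration. For restricted cows (REST, n = 6), barley straw was mixed into that ration over 4 d and made up 48% of its dry matter. Biopsies were taken 24 h after LPS in both groups, and no gland without LPS was on the arrays, so that the values compare diets within the inflamed gland and do not measure the response to LPS itself.

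IL-1α and IL-1β are early signals of inflammation that bind the receptor IL1R1 and its accessory chain IL1RAP and switch on NF-κB in the responding cell. IL1RN encodes an antagonist that occupies IL1R1 without a signal, and IL1R2 binds IL-1 without passing it on. Bacterial LPS induces IL1B and NLRP3 transcription, and the NLRP3 inflammasome then activates caspase-1, which releases mature IL-1β and IL-18. The question asked of the arrays was whether the transcripts of this system differed between the diets, and which of them varied together between cows.

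Values are log2 intensities minus the 75th percentile of the same array, so that 0 is the 75th percentile itself, and they are not levels that can be set against each other between probes. Each gene is represented by its brightest probe, that with the highest mean over the 12 arrays. The 75th percentile intensity was 577 to 1184 in CONT and 387 to 1082 in REST, and 57.6 to 78.2% of the spots were well above background, a call of the image software. REST cows 0049 and 1015 had the dimmest arrays (387 and 508). The arrays lay on 3 slides. The diets were uneven on slide 1 (3 CONT cows, 1 REST cow) and slide 2 (1 CONT cow, 3 REST cows) and even on slide 3 (2 cows each). Negative control spots read 37.7 to 58.2 on slide 1, 18.2 to 19.6 on slide 2 and 17.4 to 19.96 on slide 3. With 12 arrays, precision is limited for every value below, and in bulk tissue fewer cells of a type and less RNA per cell cannot be told apart.

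No gene of the IL-1 system differed between REST and CONT after adjustment. limma with Benjamini-Hochberg adjustment over all 43653 probes passed 0 probes at 0.05 (0%), with a lowest adjusted p of 0.777, and Westfall-Young adjustment also passed 0. The unadjusted p was under 0.05 for 1143 probes (2.62%), with 0.875% lower and 1.74% higher in REST. By their brightest probe it was so for 334 named genes (2.64%), with 1.01% lower and 1.63% higher. IL1A was the 1 of the 8 measured members under that level, and the adjusted p of every member was 1. The mean was lower in REST for 6 members and higher for 2, IL1R1 and IL1RAP, while 56.5% of all named genes had a lower mean in REST. The median log2 FC (REST minus CONT) was -0.28 over the 8 members, with a range of -0.78 to 0.53, and -0.034 over all named genes. No member had groups that did not overlap, a pattern shown by 56 probes (0.128%).

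**Figure D1:**
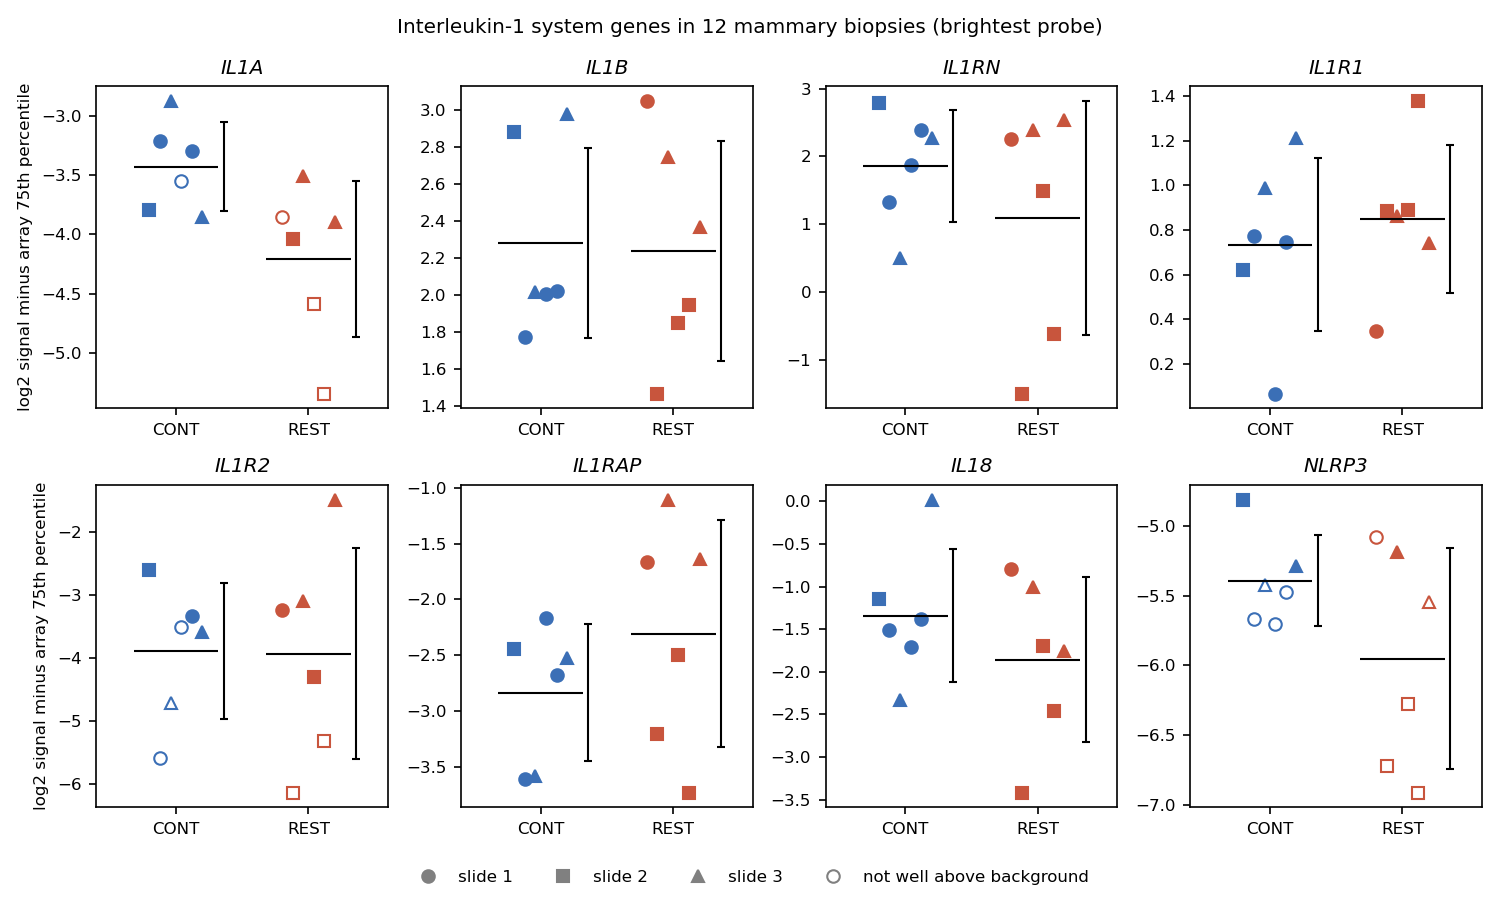
Signal of the brightest probe of each gene in the 12 cows (y axis, log2 intensity minus the 75th percentile of the array), by diet; each point is 1 cow, its shape gives the slide, open points were not well above background, horizontal lines are group means and the bars beside them are 1 SD. The diets overlapped for all 8 genes, and 2 REST cows on slide 2 lay below every other cow for IL1RN.

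IL1A, which encodes IL-1α, an alarm signal that is active without inflammasome cleavage, was 1.71-fold lower in REST before adjustment. Its signal was -3.85, -3.42 and -2.87 (lowest, median and highest) in CONT, and -5.34, -3.97 and -3.51 in REST. The values of 5 of the 6 REST cows were below every CONT cow, but REST cow 0078 (-3.853) was all but level with the lowest CONT cow, 8027 (-3.852), and REST cow 1018 lay within the CONT range. The log2 FC was -0.78 (SE 0.30, 95% interval -1.42 to -0.13), with p = 0.0218 in limma and p = 0.0173 in an exact permutation of the cows. The probe was dim, being well above background in 5 of 6 CONT and 3 of 6 REST cows, and its raw intensity ran from 12.6 in REST cow 1015 to 113 in CONT cow 1076. It no longer had an unadjusted p under 0.05 with normexp background correction (log2 FC -0.24), with slide as a block (-0.55), with the mean over its probes (-0.53), with array brightness as a covariate (-0.69), without REST cows 0049 and 1015 (-0.53) or without CONT cow 0015, the highest (-0.66). The other IL1A probe was well above background on 0 arrays, and no fold is given for it.

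IL1B, the ligand that the inflammasome matures, had nearly equal means in both diets. Its signal was 1.77, 2.02 and 2.98 in CONT (lowest, median and highest) and 1.47, 2.16 and 3.05 in REST. The spread lay within the diets: CONT cows 9040 (2.88) and 8027 (2.98) stood above the other 4 CONT cows, which lay between 1.77 and 2.02. REST cows ran without such a gap from cow 0049 (1.47) to cow 0078 (3.05). The log2 FC was -0.042 (SE 0.31, exact permutation p = 0.896), and its 95% interval, -0.70 to 0.62, leaves room for a change of either sign. The 3 dimmer IL1B probes gave -0.64 (SE 0.44), -0.27 (SE 0.17) and -0.33 (SE 0.30), with exact permutation p of 0.212, 0.11 and 0.312. All 4 probes thus had the lower mean in REST, and their signals correlated between cows with Pearson's r of 0.556 to 0.898 (12 cows, probes of the same gene on the same arrays). The sign of the brightest probe turned with slide as a block (0.020), with array brightness as a covariate (0.32) and without REST cows 0049 and 1015 (0.22).

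IL18, a ligand that also needs caspase-1 and drives interferon-γ production, ranged over 3.44 log2 units. CONT cows had -2.34, -1.44 and 0.02 (lowest, median and highest) and REST cows -3.42, -1.73 and -0.80. CONT cow 8027 was the highest, and REST cows 0049 (-3.42) and 1015 (-2.46) the lowest. This gave a log2 FC of -0.51 (SE 0.47, 95% interval -1.52 to 0.50, exact permutation p = 0.342). With slide as a block it was -0.28. Without these 2 REST cows the sign turned, with a log2 FC of 0.029.

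IL1RN, the receptor antagonist that is usually induced along with the ligands, was split among REST cows. The CONT values were 0.50, 2.07 and 2.78 (lowest, median and highest), and the REST values -1.49, 1.87 and 2.54. REST cows 0049 (-1.49) and 1015 (-0.62) were below every CONT cow, while the other 4 REST cows, between 1.49 and 2.54, were within the CONT range. The diets differed by a log2 FC of -0.76 (SE 0.71, 95% interval -2.29 to 0.77, exact permutation p = 0.353). With slide as a block it was -0.35, and leaving out both low cows turned it to 0.31. The same cows had the lowest values of the second IL1RN probe (-4.95 and -2.78), for which the log2 FC was -0.92 (SE 0.84), and the third probe, well above background on 3 arrays, gave -0.48 (SE 0.54). The brightest probe was well above background in both cows, while the second was not in cow 0049 and the third was in neither. On the third probe cow 1015 was the lowest (-6.91), but CONT cows 0015 (-6.67) and 1076 (-6.59) lay below cow 0049 (-6.55).

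The signalling receptor chains were the 2 members with the higher mean in REST. IL1R1, the chain that binds IL-1, had 0.07, 0.76 and 1.21 in CONT (lowest, median and highest) and 0.35, 0.87 and 1.38 in REST. REST cow 1015 was the highest and CONT cow 1024 the lowest, and 5 of 6 REST cows lay above the CONT mean. Its log2 FC was 0.12 (SE 0.22, 95% interval -0.35 to 0.58, exact permutation p = 0.593). Both other IL1R1 probes had the same sign, with log2 FC of 0.35 (SE 0.24, exact permutation p = 0.18) and 0.40 (SE 0.16, limma p = 0.0289, exact p = 0.026). The last of these is the second of the 17 probes with an unadjusted p under 0.05. The sign of the brightest probe turned with slide as a block (-0.044) and without both low REST cows (-0.023).

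IL1RAP, the accessory chain shared by the receptors of IL-1, IL-33 and IL-36, had the largest positive difference of the 8 members. CONT cows had -3.61, -2.60 and -2.17 (lowest, median and highest), and REST cows -3.73, -2.08 and -1.11. REST cows 1018, 1058 and 0078 were above every CONT cow, and REST cow 1015 was below every CONT cow. The log2 FC was 0.53 (SE 0.44, 95% interval -0.44 to 1.49, exact permutation p = 0.299), and the second probe gave 0.26 (SE 0.42), with r = 0.94 between the 2 probes. Without REST cows 0049 and 1015 the log2 FC was 1.11 (SE 0.36, limma adjusted p = 0.999), with an unadjusted p under 0.05, a setting chosen after the values were seen.

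IL1R2, the decoy receptor, is carried in quantity by neutrophils and lies next to IL1R1 on the chromosome, with 0 protein-coding genes between them in the RefSeq table. Its values spanned 4.66 log2 units, but those at the low end were not well above background. The CONT values were -5.59, -3.54 and -2.60 (lowest, median and highest) and the REST values -6.13, -3.76 and -1.48. REST cow 1058 was above every CONT cow and REST cow 0049 below every CONT cow. Its log2 FC was -0.041 (SE 0.73, exact permutation p = 0.957), and its 95% interval ran from -1.63 to 1.55. The sign turned with slide as a block (0.22), without REST cows 0049 and 1015 (0.86) and in 7 of the fits that left out a single cow. The probe was well above background in 3 CONT and 4 REST cows.

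NLRP3, the sensor that nucleates the inflammasome, was at the edge of detection. It was well above background in 2 CONT and 1 REST cows, with -5.70, -5.45 and -4.81 in CONT (lowest, median and highest) and -6.91, -5.91 and -5.08 in REST. The 3 REST cows of slide 2, 1015 (-6.91), 0049 (-6.72) and 7043 (-6.27), were below every CONT cow, and none of these 3 values was well above background. REST minus CONT gave a log2 FC of -0.56 (SE 0.33, 95% interval -1.27 to 0.15, exact permutation p = 0.147). It was -0.26 with quantile normalization, -0.12 with normexp correction and -0.13 without REST cows 0049 and 1015.

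**Figure D2:**
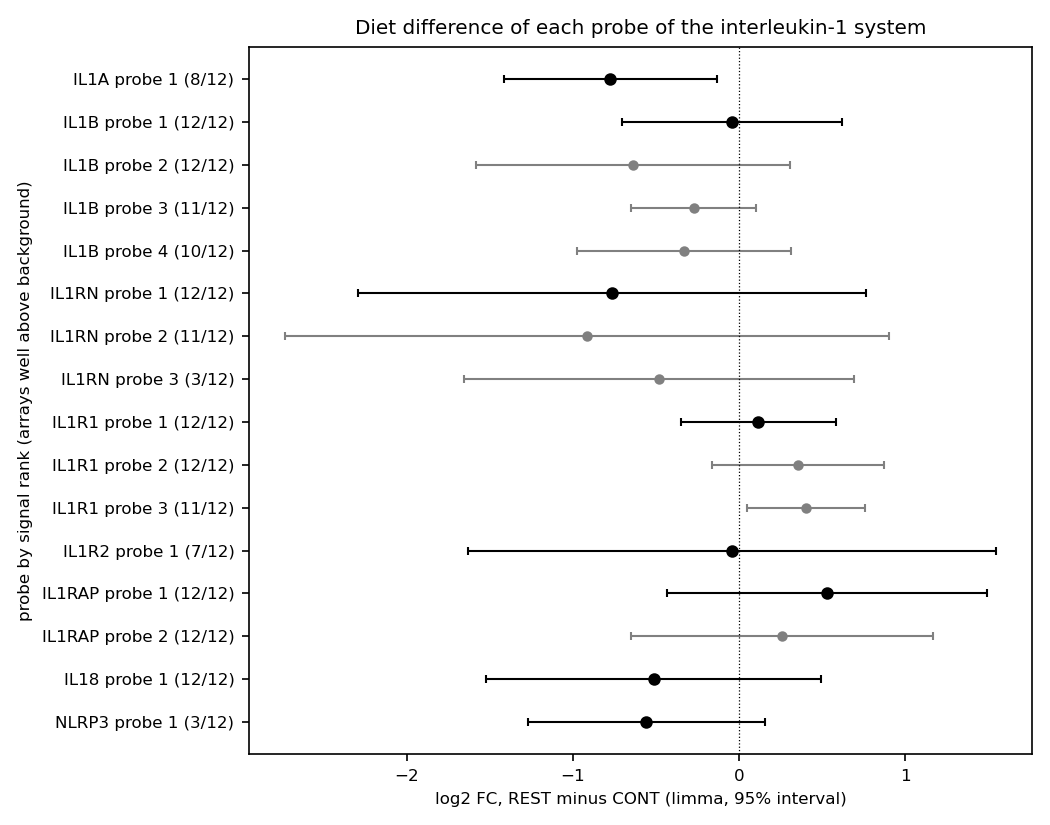
Difference between REST and CONT (x axis, log2 FC with its 95% interval, limma) for the 16 probes of the IL-1 system that were well above background on at least 1 array; probes of a gene are numbered from the brightest, black points mark the brightest, and the number of such arrays stands in parentheses. The intervals include 0 for all probes but the brightest IL1A probe and the third IL1R1 probe, neither of which passed adjustment.

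The 2 REST cows named above had low signals for several members. Cows 0049 and 1015 were each among the 3 lowest cows for 6 of the 8 members, and no other cow was so for more than 3. These ranks include values not well above background, those of IL1R2 and NLRP3 in both cows and of IL1A in cow 1015. Over the 5 members well above background on all 12 arrays, IL1B, IL1RN, IL1R1, IL1RAP and IL18, cows 0049 and 1015 were each among the 3 lowest for 3, as was CONT cow 0015. Cow 0049 was the lowest of the 12 for 3 of these 5, and cow 1015 the lowest for 1 and the highest for 1, IL1R1. REST cows 1018 and 0078 and CONT cow 8027 were each among the 3 highest for 3. Without cows 0049 and 1015 there were 5 members with the higher mean in REST in place of 2. Both cows were on slide 2 with REST cow 7043 and CONT cow 9040, and the log2 FC within slides went both ways for 7 of the 8 members. For IL1RN it was 0.39 on slide 1, -2.99 on slide 2 and 1.08 on slide 3, for IL1R2 0.90, -2.65 and 1.86, for IL1B 1.12, -1.12 and 0.057, and for IL1RAP 1.15, -0.70 and 1.68. IL18 had 0.73, -1.38 and -0.22, NLRP3 0.53, -1.82 and -0.012, and IL1R1, of opposite signs, -0.18, 0.43 and -0.30. IL1A, the exception, was lower in REST on every slide, at -0.50, -0.86 and -0.34. Each slide held 4 cows, and these within-slide values were not tested. No NLRP3 value on slide 1, and no REST value of NLRP3 on slide 2, was well above background, so that its differences there are uncertain.

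Neutrophil, macrophage, T and NK cell and fibroblast markers and array brightness were low in these cows. The mean over the 17 measured neutrophil markers was -1.06 in cow 0049 and -0.21 in cow 1015, the lowest of the 12. It ranged from -0.11 to 1.26 in CONT and from -1.06 to 1.39 in REST. The mean over 14 macrophage and monocyte markers was also the lowest in these cows (-0.48 and 0.42), as was that of 9 fibroblast markers (1.08 and 1.40). T and NK cell markers were the lowest in cow 0049 (-1.15), with CONT cow 0015 (-1.08) and cow 1015 (-1.07) next. Secretory epithelium markers were not low there, at 5.91 and 5.88, within a range of 5.17 to 6.11 over all cows. B and plasma cell markers were the highest of the 12 in cow 0049 (-0.52) and -0.83 in cow 1015, and dendritic cell markers were -3.75 in both. Endothelium markers were the highest of the 12 in these cows, at 0.92 and 0.71. Adipocyte markers were the highest of the 12 in cow 0049 (-0.30) and -0.54 in cow 1015, mast cell markers were the lowest in cow 1015 (-3.25) but not in cow 0049 (-2.66), and myoepithelium markers were 2.10 in cow 1015 and 2.23 in cow 0049.

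**Figure D3:**
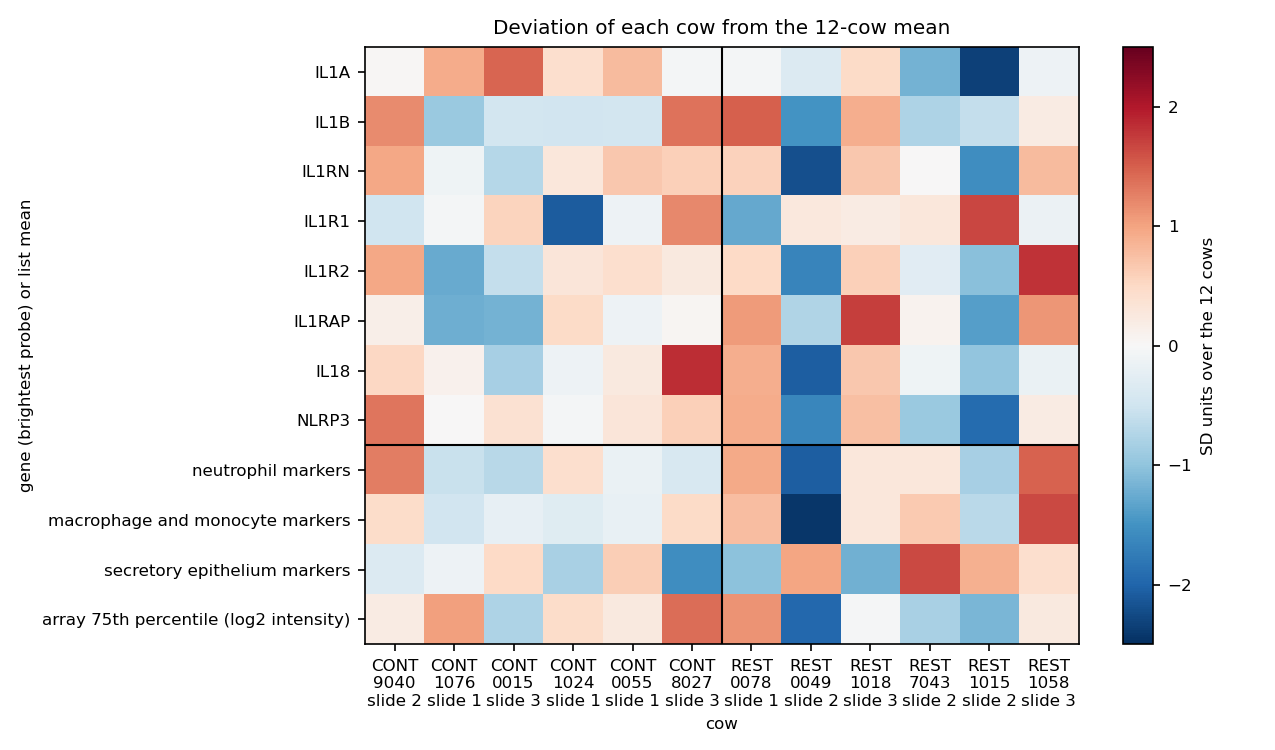
Deviation of each cow (columns, with diet and slide) from the mean of the 12 cows, in SD units (color), for the brightest probe of each gene, for the mean level of 3 marker lists and for the log2 of the array's 75th percentile intensity (rows). REST cows 0049 and 1015 are blue for every gene but IL1R1 and for the neutrophil and macrophage lists, and their arrays are the dimmest.

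Across the 12 cows, IL1B was correlated with 5 of the 7 other measured members after Benjamini-Hochberg adjustment over these 7 pairs (two-sided permutation test). The share of all named genes that would pass the same test was not counted. Genes outside the system had higher r with IL1B than any member, up to 0.908 for CMBL among 8996 genes. Whether the pairs are particular to the IL-1 system was therefore not tested. The closest member by Pearson's r was IL18, the other ligand of the inflammasome, with r = 0.821 (permutation p = 0.00061, adjusted 0.00427) and Spearman's rho = 0.762 (p = 0.00584, adjusted 0.0136). NLRP3 followed by r, with 0.767 (permutation p = 0.0037, adjusted 0.0129), and was the closest by rho, with 0.867 (permutation p = 0.00057, adjusted 0.00399). For IL1RN r was 0.705 (permutation p = 0.00945, adjusted 0.022) and rho 0.741 (p = 0.00819, adjusted 0.0143). Cows with more IL1B signal thus tended to have more signal of the antagonist, a relation that did not pass in every setting below. IL1R2 gave r = 0.685 (permutation p = 0.0156, adjusted 0.0273) and rho = 0.769 (p = 0.00553, adjusted 0.0136), and IL1RAP gave r = 0.637 (p = 0.0294, adjusted 0.0411) and rho = 0.601 (p = 0.0446, adjusted 0.0624). IL1A (r = 0.0921, permutation p = 0.784; rho = 0.133, p = 0.683) and IL1R1 (r = -0.133, permutation p = 0.684; rho = -0.294, p = 0.355) did not pass. Thus IL1A, which is separated from IL1B by 1 protein-coding gene in the RefSeq table, did not share its order of cows.

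The relations kept their sign when the 2 cows farthest from the IL1B median were left out, REST cow 0078 and CONT cow 8027, with r of 0.723 for IL18, 0.762 for NLRP3, 0.731 for IL1RN, 0.777 for IL1R2 and 0.652 for IL1RAP. Within diets, r with IL1B was 0.76 in CONT and 0.913 in REST for IL18, 0.81 and 0.914 for NLRP3, and 0.627 and 0.804 for IL1RN. For IL1R2 it was 0.659 and 0.711, and for IL1RAP 0.52 and 0.793. The remaining members had opposite signs in the diets, with -0.806 in CONT and 0.525 in REST for IL1A and 0.358 and -0.622 for IL1R1. Within slides 1, 2 and 3, each of 4 cows, r was 0.912, 0.853 and 0.977 for IL18 and 0.944, 0.904 and 0.671 for NLRP3. IL1RN had 0.57, 0.848 and 0.73, IL1R2 had 0.578, 0.937 and 0.203, and IL1RAP had 0.813, 0.501 and 0.509. The sign was therefore positive in every slide for these 5 genes. With slide means removed, IL18 (0.826), NLRP3 (0.764) and IL1RN (0.697) passed adjustment, and IL1R2 (0.622, adjusted permutation p = 0.0559) and IL1RAP (0.577, adjusted permutation p = 0.0711) did not. Without REST cows 0049 and 1015, IL18 (0.762) and NLRP3 (0.792) passed, while IL1RN (0.64, adjusted permutation p = 0.0965), IL1R2 (0.542, adjusted p = 0.149) and IL1RAP (0.578, adjusted p = 0.148) did not. The background correction mattered as well. With normexp 4 pairs passed, IL18 (0.738) and IL1RN (0.712) and, with a negative sign, NLRP3 (-0.606) and IL1A (-0.596), while IL1R2 (0.0255, adjusted permutation p = 0.936) and IL1RAP (0.318, adjusted p = 0.435) did not. The NLRP3 probe was well above background in 3 of the 12 cows.

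**Figure D4:**
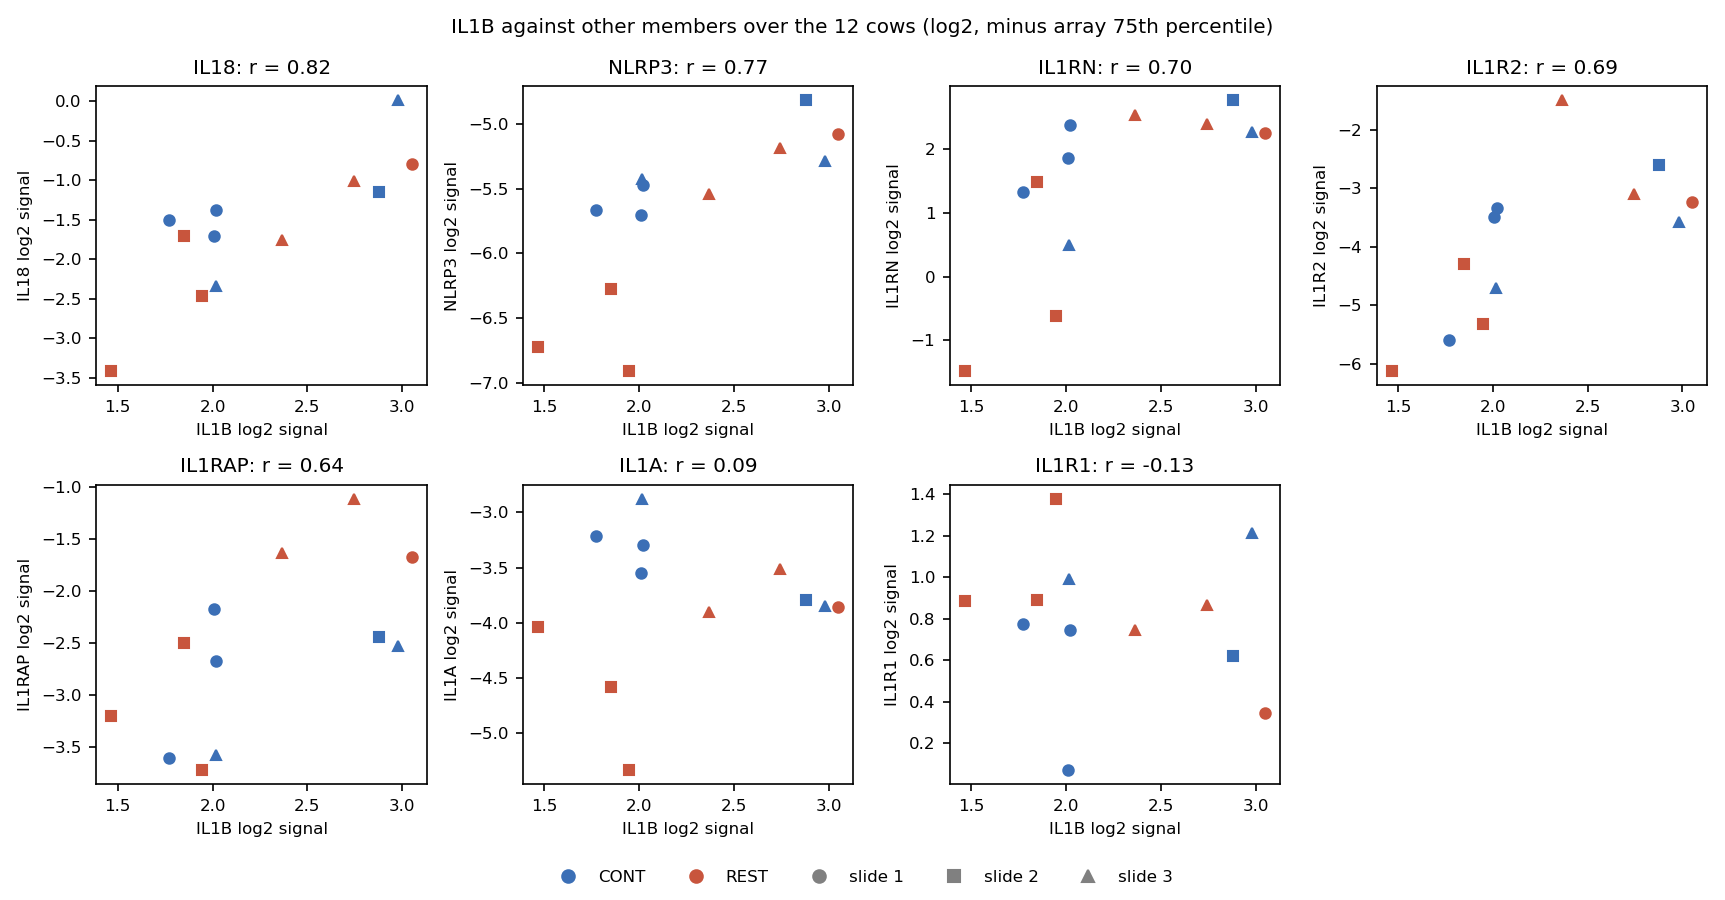
Signal of IL1B (x axes) against that of each other measured gene (y axes) in the 12 cows, both as log2 intensity minus the 75th percentile of the array; color gives the diet and shape the slide. Pearson's r was 0.82 for IL18, 0.77 for NLRP3 and 0.69 for IL1R2 and 0.09 for IL1A.

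Neutrophil marker level and array brightness, set beside each of the 8 members, gave 16 relations in all (two-sided permutation test, adjusted over the 8 genes of each measure), which were examined after the values were seen. IL1R2 was correlated with the neutrophil markers, with r = 0.895 (permutation p = 0.00017, adjusted 0.00068) and rho = 0.916 (p = 8e-05, adjusted 0.00064). Its r was 0.791 without the 2 cows farthest from the median marker level, 0049 and 1058, and 0.773 within CONT, 0.942 within REST and 0.919 with slide means removed. For IL1RN r was 0.846 (permutation p = 8e-05, adjusted 0.00064), rho 0.839 (p = 0.00108, adjusted 0.00288), r without those 2 cows 0.717, and r with slide means removed 0.865. IL1RAP (r = 0.703, adjusted permutation p = 0.0287; rho = 0.853, adjusted p = 0.00288), NLRP3 (r = 0.653, adjusted p = 0.0414; rho = 0.552, adjusted p = 0.0891) and IL1B (r = 0.635, adjusted p = 0.0414; rho = 0.622, adjusted p = 0.0564) were also correlated with the markers by Pearson's r. Without the same 2 cows their r was 0.711, 0.571 and 0.568, and with slide means removed 0.689, 0.649 and 0.628. IL18 did not pass (r = 0.563, adjusted permutation p = 0.0744; rho = 0.469, adjusted p = 0.145), nor did IL1A (r = 0.0736, adjusted p = 0.82; rho = 0.00699, adjusted p = 0.991). IL1R1 ran the other way by rank, with rho = -0.748 (adjusted permutation p = 0.0146) and r = -0.504 (adjusted p = 0.109), or -0.684 without the same 2 cows. The probes of IL1R2, NLRP3 and IL1A were not well above background in 5, 9 and 4 of the 12 cows, so that their low values, and their place among the members in these relations and in those that follow, are uncertain.

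Other marker lists moved with the members as well. The members were set in the same way beside each of the other 10 marker lists, 80 relations in all, again after the values were seen and adjusted over the 8 genes of each list. By r 17 of them passed, and by rho 12. Macrophage and monocyte markers gave 5 by r, T and NK cell, secretory epithelium and fibroblast markers 3 each, adipocyte markers 2 and B and plasma cell markers 1, while dendritic cell, mast cell, myoepithelium and endothelium markers gave 0 by either measure. With macrophage and monocyte markers, IL1R2 had r = 0.834 (adjusted permutation p = 0.00284) and rho = 0.748 (adjusted p = 0.0304), and IL1RN had r = 0.822 (adjusted permutation p = 0.00284) and rho = 0.699 (adjusted p = 0.0304). IL1B had r = 0.655 with the same markers (adjusted permutation p = 0.0381) and rho = 0.699 (adjusted p = 0.0304). Without the 2 cows farthest from the median of the list, r was 0.644 for IL1R2, 0.65 for IL1RN and 0.703 for IL1B, and with slide means removed it was 0.795, 0.828 and 0.581. NLRP3 followed fibroblast markers more closely than neutrophil markers by r, at 0.835 (adjusted permutation p = 0.0105), but its rho of 0.573 did not pass (adjusted p = 0.126) and its r was -0.324 within CONT and 0.9 within REST. IL18 had r = 0.814 (adjusted permutation p = 0.00704) and rho = 0.867 (adjusted p = 0.00432) with T and NK cell markers. The other positive relations that passed by r were those of IL1RAP (0.612) and IL18 (0.678) with macrophage markers, IL1RN (0.704) and IL1RAP (0.688) with T and NK cell markers, and IL1RN (0.752) and IL18 (0.721) with fibroblast markers. Of these, IL1RAP with macrophage markers also passed by rho. Without the 2 cows farthest from the list's median, the fibroblast relations were 0.121 for IL1RN and 0.293 for IL18, so that they rested on those cows. The adipocyte and secretory epithelium lists ran the other way, as did B and plasma cell markers for IL18 (r = -0.773, adjusted permutation p = 0.0431; rho = -0.699, adjusted p = 0.113), where r was -0.343 without the 2 farthest cows. Of the 7 adipocyte markers only 3, CIDEA, FABP4 and PNPLA2, were well above background on all arrays. The mean of that list thus includes dim values, and which cells gave its signal was not tested. With adipocyte markers r was -0.8 for IL1B (adjusted permutation p = 0.00812; rho = -0.734, adjusted p = 0.0242) and -0.834 for IL18 (adjusted p = 0.004; rho = -0.93, adjusted p = 0.00048), and with secretory epithelium markers -0.76 for IL1B (adjusted p = 0.0216; rho = -0.741, adjusted p = 0.0315). Without the 2 cows farthest from the list's median these were -0.75, -0.74 and -0.705, and with slide means removed -0.774, -0.904 and -0.763. IL18 (-0.739, adjusted permutation p = 0.0216) and NLRP3 (-0.692, adjusted p = 0.0334) also had negative r with secretory epithelium markers, and both passed by rho. With adipocyte markers, IL1RN (rho = -0.678, adjusted permutation p = 0.0387) and NLRP3 (rho = -0.748, adjusted p = 0.0242) passed by rho but not by r. Which of these lists the members follow was not tested.

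IL18 was the member closest to array brightness, the log2 of the 75th percentile intensity, with r = 0.877 (permutation p = 0.00011, adjusted 0.00088) and rho = 0.699 (p = 0.0143, adjusted 0.115). IL1RN (r = 0.787, adjusted permutation p = 0.0086; rho = 0.455, adjusted p = 0.224), NLRP3 (r = 0.733, adjusted p = 0.0189; rho = 0.503, adjusted p = 0.224) and IL1B (r = 0.65, adjusted p = 0.0474; rho = 0.573, adjusted p = 0.224) followed. The 2 cows farthest from the median brightness were 0049 and 1015, and without them r was 0.725 for IL18, 0.416 for IL1RN, 0.388 for NLRP3 and 0.464 for IL1B. With slide means removed it was 0.904 for IL18, 0.726 for IL1RN and 0.767 for IL1B. The other members had r of -0.369 to 0.512 with brightness, and none passed. When brightness was regressed out of both genes, 0 of the 7 IL1B pairs passed, with r of 0.688 for IL18 (adjusted permutation p = 0.0939), 0.563 for NLRP3 and 0.413 for IL1RN. When the neutrophil marker level was regressed out instead, 0 passed, with 0.726 for IL18 (adjusted permutation p = 0.0513), 0.603 for NLRP3, 0.407 for IL1RN and 0.339 for IL1R2. The 75th percentile had also been subtracted from every member and marker value. Brightness and these values are therefore not independent measures, which the permutation p does not take into account. Marker level, brightness and the members were measured on the same arrays, and whether they share a cause was not tested.

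The genes with a pattern across cows most like that of IL1B, among 8996 genes well above background on all arrays, were CMBL (r = 0.908), ARSB (0.907), GNG2 (0.903), ORAI3 (0.902) and MRPS27 (0.896). Among those most like IL1A were GTDC1 (0.8), ZNF322 (0.769), KCNMB1 (0.75) and SNRPB2 (0.75). These are descriptions over 12 cows on shared arrays, and each gene named here had an adjusted p of 1 for diet.

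Around the 8 genes, the rest of the pathway was also without a call after adjustment, every listed gene having an adjusted p of 1. Of the other IL-1 family ligands, receptors and regulators, 5 of 16 were measured, 2 with a higher and 3 with a lower mean in REST, and a median log2 FC of -0.0050. This median of 5 genes had no stable sign, being 0.20 with slide as a block, -0.15 without REST cows 0049 and 1015, and from -0.094 (without REST cow 0049) to 0.19 (without CONT cow 1024) with single cows left out. IL33, an alarmin of epithelium and stroma, was under the unadjusted level, with means of 1.94 (SD 0.76) in CONT and 0.96 (SD 0.64) in REST and a log2 FC of -0.98 (SE 0.38). No gene of this list was under that level with slide as a block, without REST cows 0049 and 1015 together, or without CONT cow 1076, CONT cow 0055 or REST cow 0049 singly, and 2 were without CONT cow 0015 or without REST cow 1058. Of the genes that carry the signal from the receptor to NF-κB and the MAP kinases, such as MYD88 and IRAK4, 30 of 31 were measured, with 14 higher, 16 lower, 0 under the unadjusted level and a median of -0.028. The count was 1 without CONT cow 9040, REST cow 1018 or REST cow 1015 singly, and the median ran from -0.10 without CONT cow 0015 to 0.084 without REST cows 0049 and 1015, being 0.022 with slide as a block. MYD88 (log2 FC 0.044, SE 0.17) and IRAK4 (0.0025, SE 0.13), the first proteins recruited to the receptor, were among the genes with means nearest to each other.

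Of the inflammasome and release genes other than members, 19 of 31 were measured, 12 higher and 7 lower in REST, with 0 under the unadjusted level and a median log2 FC of 0.026, which became 0.14 with slide as a block, 0.17 without REST cow 1015 and 0.32 without REST cows 0049 and 1015, where 2 genes were under that level. Without other single cows it ran from 0.0060 (REST cow 7043) to 0.11 (CONT cow 1024). It was 1 gene with the mean over a gene's probes and without CONT cow 9040, REST cow 0049 or REST cow 1018 singly. PYCARD, the adaptor between NLRP3 and caspase-1, had a log2 FC of -0.17 (SE 0.36), and GSDMD, which forms the pore for release, had 0.44 (SE 0.29). These genes and the pair before them were named for their roles after their values were seen. Of the IL-1 target genes, 23 of 25 were measured, 7 higher and 16 lower in REST, with a median of -0.19, which turned to 0.21 without those 2 cows and to 0.063 with slide as a block, and was -0.42 with the filter on dim probes. With single cows left out it ran from -0.29 (CONT cow 0015) to -0.024 (REST cow 0049), and it was -0.085 without CONT cow 1024, -0.094 without CONT cow 0055 and -0.11 without REST cow 1015. Under the unadjusted level were PTGS2, the inducible cyclooxygenase, with a log2 FC of -0.80 (SE 0.29), and MMP1, a collagenase, with 1.1 (SE 0.38). The count of 2 fell to 0 with normexp, with the mean over a gene's probes or without REST cows 0049 and 1015, and to 1 with slide as a block.

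**Figure D5:**
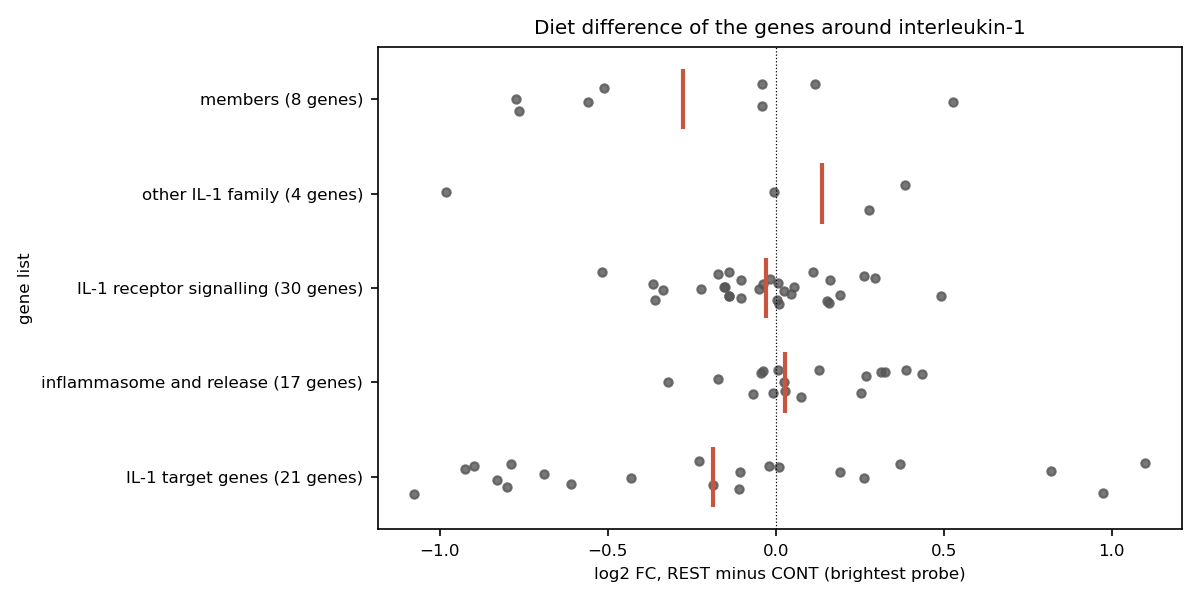
Difference between REST and CONT (x axis, log2 FC of the brightest probe) for the genes of the IL-1 system and of 4 lists around it (y axis); each point is a gene well above background on at least 1 array, and red bars mark the median of the points drawn. The medians of the lists lie between -0.28 for the IL-1 system and 0.14 for the other family members, and the target genes spread from -1.08 to 1.1.

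Markers of the cell types that a biopsy can hold gave the following values, and those named with a log2 FC had an unadjusted p under 0.05 in limma. All 14 measured secretory epithelium markers (of 15) exceeded background on all arrays, with 11 higher and 3 lower in REST and none under the unadjusted level. Of the 17 measured neutrophil markers (of 22), 13 exceeded background on all arrays, 10 were higher in REST, and TREM1, a receptor that amplifies neutrophil responses, had a log2 FC of 0.60 (SE 0.24). ELANE was also in the inflammasome list. Of the 14 macrophage and monocyte markers (of 18), 5 were higher in REST and none was under the unadjusted level. Of 18 T and NK cell markers (of 19), 7 were higher, with CD3D at 0.60. Of 7 B and plasma cell markers (of 10), 4 were higher, with POU2AF1 at 0.94. MS4A1, another B cell gene, was also under the unadjusted level, with means of -5.46 in CONT and -4.74 in REST. It was well above background in 0 CONT and 4 REST cows, so that no fold is given for it. Of 9 fibroblast markers (of 9), 6 were lower, with LUM at -0.84, COL1A2 at -0.65 and COL1A1 at -0.72. All 9 endothelium markers (of 9) were higher, with VWF at 0.79. CONT cow 8027 stood apart in the mean over these markers, at -1.44. The other CONT cows lay between 0.33 and 0.59, and the REST cows between 0.06 and 0.92. The markers were not tested without that cow. None was under the unadjusted level among 6 dendritic cell (2 higher), 4 mast cell (3 higher), 8 myoepithelium (1 higher) and 7 adipocyte markers (6 higher). The adjusted p of every marker was 1.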

How the data were processed

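RNA of 12 MG biopsies (6 CONT, 6 REST, 1 array per cow) was labeled with Cy3 by the authors. The deposited values are spot intensities from Feature Extraction (version 11.0.1.1 in the file headers), background-corrected by that software and not normalized between arrays. The series' own matrix held identical intensities (largest difference 0). Of 45220 spots, 43803 were not controls and gave 43653 probes. Outlier spots were set to missing, log2 intensities were shifted by the 75th percentile of each array, and spots of a probe were averaged. Probes were named by matching their accession to the RefSeq table (26832 probes, 12639 genes); array and table follow different assemblies, so coordinates were not used.

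The diets were compared by limma 3.58.1 (R 4.3.3; lmFit, eBayes, two-sided) on all 12 arrays, with Benjamini-Hochberg adjustment over all probes at 0.05. The Westfall-Young adjustment named in the study's methods (100 splits) was an alternative. Exact permutation tests enumerated 924 splits (smallest p 0.00216), and correlations used 100000 resamples. The procedure was tested on simulated data. Figures were drawn with matplotlib 3.10.9. Named were all members with their probes, up to 3 listed genes under the unadjusted level with the lowest p, and the 5 genes most like IL1B and IL1A, of which 1 is not reported here. The members and lists were chosen with earlier results of these data known.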

Additional observations from a re-analysis of the deposited data

How the results depend on the processing

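No paired analysis was possible because the groups hold different cows and the labels tie no cow of a group to a cow of the other. The count of 0 members and 0 probes past the adjusted threshold held under every alternative run: Westfall-Young adjustment (lowest adjusted p 0.2), quantile normalization, normexp (offset 50), the matrix, outlier spots kept, a filter on dim probes (26678 probes and 5 members kept), slide as a block, an intensity trend, the mean over a gene's probes (members only), and each cow left out in turn. The signs of the differences were less stable. IL1R2 turned to 0.00050 with quantile normalization. With slide as a block, IL1B turned to 0.020, IL1R1 to -0.044 and IL1R2 to 0.22. Within slide 1, IL1B was 1.12, IL1RN 0.39, IL1R1 -0.18, IL1R2 0.90, IL18 0.73 and NLRP3 0.53. Within slide 2, IL1RAP was -0.70. Within slide 3, IL1B was 0.057, IL1RN 1.08, IL1R1 -0.30 and IL1R2 1.86. Chosen after seeing the data, leaving out REST cows 0049 and 1015 turned IL1B to 0.22, IL1RN to 0.31, IL1R1 to -0.023, IL1R2 to 0.86 and IL18 to 0.029, raised the members higher in REST from 2 to 5 and moved the inflammasome list's median to 0.32. Array brightness as a covariate, also chosen later, turned IL1B to 0.32, IL1RN to 0.18, IL1R2 to 0.69 and IL18 to 0.18; IL1RAP was then 1.02, with an unadjusted p under 0.05, which IL1A (-0.69) no longer had. With the neutrophil marker level as a covariate no sign turned, and IL1RN (-0.80), NLRP3 (-0.57) and IL1A (-0.78) had an unadjusted p under 0.05, with adjusted p of 1 in limma. The members with an unadjusted p under 0.05 numbered 0 with normexp, the filter on dim probes, the slide block and the mean over probes. With each cow left out in turn they numbered 0 (without CONT cow 0015) to 2 (without REST cow 0078, where NLRP3 joined IL1A), and the members higher in REST 2 to 4. Over these fits the log2 FC ran from -0.91 to -0.55 for IL1A, from -0.20 to 0.11 for IL1B, from -1.05 to -0.25 for IL1RN, from -0.017 to 0.22 for IL1R1, from -0.53 to 0.40 for IL1R2, from 0.29 to 0.81 for IL1RAP, from -0.72 to -0.20 for IL18 and from -0.73 to -0.37 for NLRP3. Of the 7 IL1B pairs, 5 passed. Without single cows 2 to 5 passed (2 without REST cow 0049), with slide means removed 3, with the IL1B probe A_73_110556 3, without both low REST cows 2, and with brightness or neutrophil markers removed 0; the last 4 settings were chosen after seeing the data. IL1B with IL1A turned to -0.60 with normexp, -0.18 with slide means removed, -0.23 without the low cows, -0.23 with brightness removed and -0.067 at the lowest without single cows (highest 0.19). IL1B with IL1R1 turned to 0.040 without the low cows, 0.15 with brightness removed, 0.28 with neutrophil markers removed and 0.071 at the highest without single cows (lowest -0.35). IL1B with NLRP3 turned to -0.61 with normexp. The cause of these turns was not tested. NLRP3 was well above background on 3 of the 12 arrays, IL1R2 on 7 and IL1A on 8, which limits what their differences can show.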
